A study of Mus musculus with 14 samples.

Results

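The genes described here are 34 enzymes, carriers and transporters of fatty acid oxidation, measured by RNA sequencing in adipocytes from 3 fat depots of mice on 2 diets. They were taken by symbol from the 38553 gene identifiers of the series, and all 34 were found. By their main site in the cell, 19 are mitochondrial and 12 peroxisomal. The other 3 (Crat, Eci2 and Amacr) work in both compartments and were kept apart.

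All mice were males on the C57BL/6 background, fed either regular chow (the normal diet) or a high-fat diet for 16 weeks, starting at weaning at 3 weeks of age. White adipocytes came from the epididymal and the inguinal (subcutaneous) pads, with 3 libraries per depot and diet, numbered 0 to 2. Brown adipocytes came from the interscapular pad, with 1 library per diet, so brown values have no replicate check. Each library pooled tissue of 3 to 5 mice, digested with collagenase for 20 min (white) or 40 min (brown), and the floating cell layer was used. No genotype or drug differed between the groups.

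Mitochondrial oxidation shortens long, medium and short chains and passes electrons to the respiratory chain. Long chains enter as carnitine esters, made by Cpt1 at the outer membrane, carried by Slc25a20 and returned to CoA esters by Cpt2. Peroxisomes take up very long, branched and dicarboxylic acids through ABC transporters, shorten them with oxidases that make hydrogen peroxide, and hand the shortened products on. White adipocytes mainly store and release fat, whereas brown adipocytes burn it for heat and are rich in mitochondria.

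Promoter windows of 250 bases before the transcript start (RefSeq, GRCm38.p6) were found for 27 of the 34 members. Windows of 2 members are shown, both lying outside the annotated extent of their own gene. The Hadhb window (chr5:30155003-30155252, plus strand) is shown because Hadha and Hadhb, the subunits of the mitochondrial trifunctional protein, start head to head with 272 bases between their starts, so that 228 bases of their windows are the same DNA. The Acaa1b window (chr9:119157094-119157343, minus strand) is shown because this peroxisomal thiolase was the only member called in 4 of the 5 contrasts below. Capitals mark GGGCGG (the GC box) in the Hadhb window and CCAAT, or ATTGG on the other strand, in the Acaa1b window.
Hadhb: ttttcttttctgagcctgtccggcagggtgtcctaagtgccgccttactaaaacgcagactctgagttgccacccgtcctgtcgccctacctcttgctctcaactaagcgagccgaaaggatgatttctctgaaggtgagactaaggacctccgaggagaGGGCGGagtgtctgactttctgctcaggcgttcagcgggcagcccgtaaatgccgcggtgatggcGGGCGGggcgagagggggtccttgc
Acaa1b: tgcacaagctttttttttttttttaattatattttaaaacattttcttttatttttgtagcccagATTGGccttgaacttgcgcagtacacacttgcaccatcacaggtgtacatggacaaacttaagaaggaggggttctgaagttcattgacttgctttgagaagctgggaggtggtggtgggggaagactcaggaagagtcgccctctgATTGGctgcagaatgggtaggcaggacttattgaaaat
The Hadhb window held 2 GC boxes, and the Acaa1b window held 2 CCAAT boxes. A GC box (GGGCGG or CCGCCC) was present in 18 of the 27 members' windows and in 32.7% of all 32851 windows. CCAAT or ATTGG was present in 14 of 27 and in 33.8% of all windows. AGGTCA repeated after 1 base of any kind, the form read by PPAR nuclear receptors, was in 0 of 27 windows on either strand and in 0.0335% of all. At so low a share, 0 of 27 says nothing about such sites, as only this exact form within 250 bases was searched. AAGGTCA, read by estrogen-related receptors, was in 1 of 27, that of Acadm, and in 4.08% of all. Aligned end to end, the Acaa1a and Acaa1b windows were identical at 51.4% of aligned columns.

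Several libraries stood apart, and their values bear on what follows. In inguinal normal-diet replicates 0 and 2 the summed level of 10 lymphocyte markers was 588 and 790.2 FPKM (fragments scaled by transcript length and by the size of the library), against 69.9 in replicate 1 and 5.21 to 12.6 in the inguinal high-fat libraries. Adipoq, an adipocyte hormone, was at 919 and 994 FPKM in those 2 libraries and at 2015 in replicate 1. In epididymal adipocytes the 7 endothelial markers summed to 424 to 458 FPKM on normal diet and 38.9 to 80.3 on high-fat diet, and the 8 macrophage markers to 382 to 719.5 and 970.5 to 1776. In inguinal adipocytes 7 fibroblast and preadipocyte markers summed to 590 to 1771 FPKM on normal diet and 314 to 444 on high-fat diet, and 4 erythroid markers to 294 to 4408 and 58.6 to 136. The part of these other cells in the results was not tested, and in bulk samples fewer cells of a type and less RNA per cell cannot be told apart. Genes of the mitochondrial genome took 20.6 to 66.7% of all coding FPKM in white libraries and 80.7 and 82.5% in the brown ones. All 8 adipocyte markers were above 0 in all 14 libraries, and Ucp1, the heat-producing protein of brown fat, was at 121 and 503 FPKM in the brown libraries and at most 36.1 (inguinal high-fat replicate 2) in white ones.

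Levels spanned a wide range, and mitochondrial members were the more abundant. Over the 12 white libraries the median of the members' mean levels was 81.7 FPKM for the 19 mitochondrial members and 20.1 for the 12 peroxisomal members. Etfb, a subunit of the electron transfer flavoprotein that collects electrons from the dehydrogenases, had the highest mitochondrial mean, 228 FPKM. Cpt1b, the carnitine acyltransferase of muscle and brown fat, had the lowest, 3.58 FPKM. Among peroxisomal members Hsd17b4, the D-specific bifunctional enzyme, had the highest mean, 125 FPKM. Acox2, a branched-chain oxidase known from liver, had the lowest, 0.249 FPKM, and was listed at 0 in 7 of the 14 libraries. It did not reach 0.5 FPKM in 3 white libraries, and the tests below therefore cover 33 members.

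**Figure D1:**
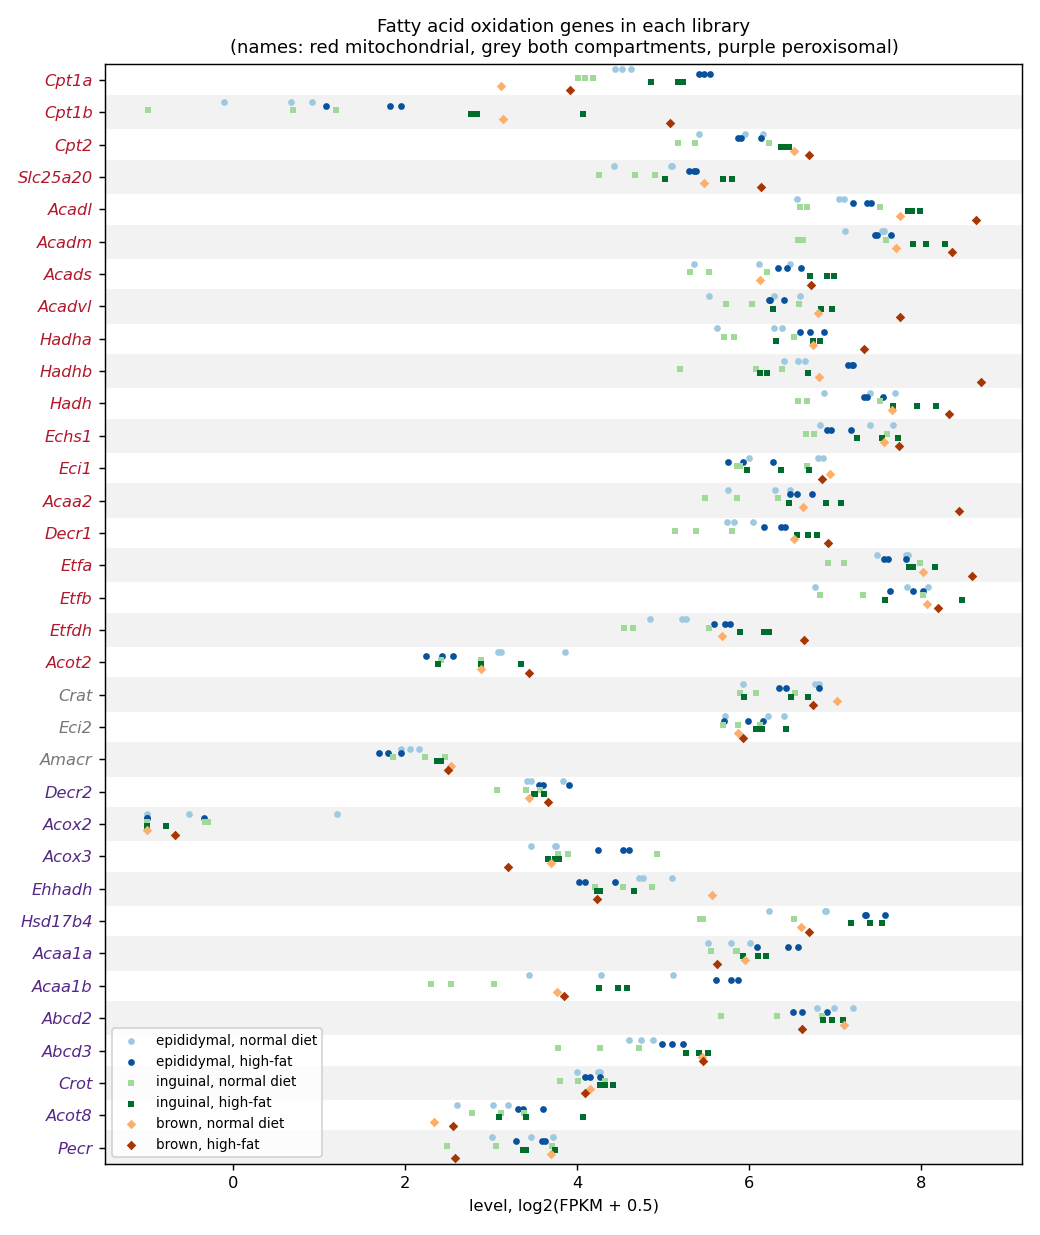
Level of each of the 34 members, as log2(FPKM + 0.5) on the horizontal axis, with 1 point per library (blue epididymal, green inguinal, orange brown; the pale shade is the normal diet). Mitochondrial members mostly lie to the right of peroxisomal ones, Cpt1a is lowest in the brown libraries and Cpt1b highest in the brown high-fat library, and the inguinal normal-diet points are spread.

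On the high-fat diet, members called by the test mostly rose, more of them in inguinal than in epididymal adipocytes, but no member passed the test of a difference between the depots (below), and the order of the counts reversed without 2 inguinal libraries. In inguinal adipocytes 14 of 33 members rose and 0 fell, with a median log2 difference of 0.64 over the members and -0.01 over all 14959 genes tested (limma, Benjamini-Hochberg adjusted p under 0.05). Of all genes, 9.3% were called higher in that comparison and 19.5% in either direction. Of the mitochondrial members 11 of 19 rose, and of the peroxisomal members 3 of 11; these shares were not tested against each other. In epididymal adipocytes 3 members rose (Cpt1a, Acaa1a and Acaa1b) and 2 fell (Acot2 and Ehhadh), where 19.5% of all genes were called, 12.2% higher and 7.35% lower, so that the members' share was close to the background. The epididymal median was 0.29 for the members and 0.07 for all genes. Counting only libraries that do not overlap, 15 members had all 3 epididymal high-fat libraries above all 3 normal-diet ones, against 25.7% of all genes, and 16 did so in inguinal adipocytes, against 15.8%.

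Adipocyte markers moved with the members in the full inguinal comparison, but not in epididymal adipocytes. The 8 adipocyte markers had a median diet difference of 0.50 in inguinal adipocytes (7 of 8 above 0, 0 called) and of -0.17 in epididymal ones (2 of 8 above 0, 0 called). Their summed level was 10458 to 26826 FPKM in inguinal normal-diet and 17317 to 27032 in inguinal high-fat libraries. Without inguinal normal-diet replicates 0 and 2 the inguinal median of these markers was -0.21, with all 8 below 0, while that of the members was 0.27. Of 9 brown adipocyte markers 8 were tested, and 3 rose in inguinal adipocytes (Dio2, Lhx8 and Elovl3), with a median of 1.15 and all 8 above 0. In epididymal adipocytes 1 rose (Dio2), with a median of 0.64. The 9 summed to 65.8 to 188 FPKM in inguinal normal-diet and 106 to 302 in inguinal high-fat libraries, with Zic1 listed at 0 in every inguinal normal-diet library. Without the same 2 libraries 0 brown markers were called in the inguinal depot and their median was 0.59. The part of either list in the members' values was not tested.

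The inguinal count leaned on the normal-diet libraries. Without inguinal normal-diet replicates 0 and 2, 4 of 33 members were called higher (Cpt1a, Cpt1b, Decr1 and Acaa1b), against 2.93% of all genes called higher and 6.25% called in either direction, and the members' median was 0.27. In that fit the lone remaining normal-diet library, replicate 1, is assumed to vary like the other groups. That library stood apart as well. Its fibroblast and preadipocyte markers summed to 1771 FPKM, the highest of all libraries, against 745 and 590 in replicates 0 and 2. Its lymphocyte markers, at 69.9 FPKM, were above the 5.2 to 12.6 of the inguinal high-fat libraries. Leaving out single libraries gave 8 (without normal-diet replicate 0) to 19 (without normal-diet replicate 1) called members, where 13.1% and 31.5% of all genes were called. It gave 9 without normal-diet replicate 2 or high-fat replicate 2, where 13% and 11.9% of all genes were called. Of the 3 inguinal normal-diet libraries, replicate 1 held the highest value for 25 of 34 members, 16 of the 19 mitochondrial ones among them. It was still below every inguinal high-fat library for 20 of the 34. In epididymal adipocytes normal-diet replicate 0 was the lowest of its group for 30 of 34 members and for all 19 mitochondrial ones. The epididymal count ran from 2 (without epididymal or inguinal high-fat replicate 0) to 9 (without inguinal normal-diet replicate 1), and was 10 (8 higher, 2 lower) without inguinal normal-diet replicates 0 and 2, where 28.8% of all genes were called, 18% higher.

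**Figure D2:**
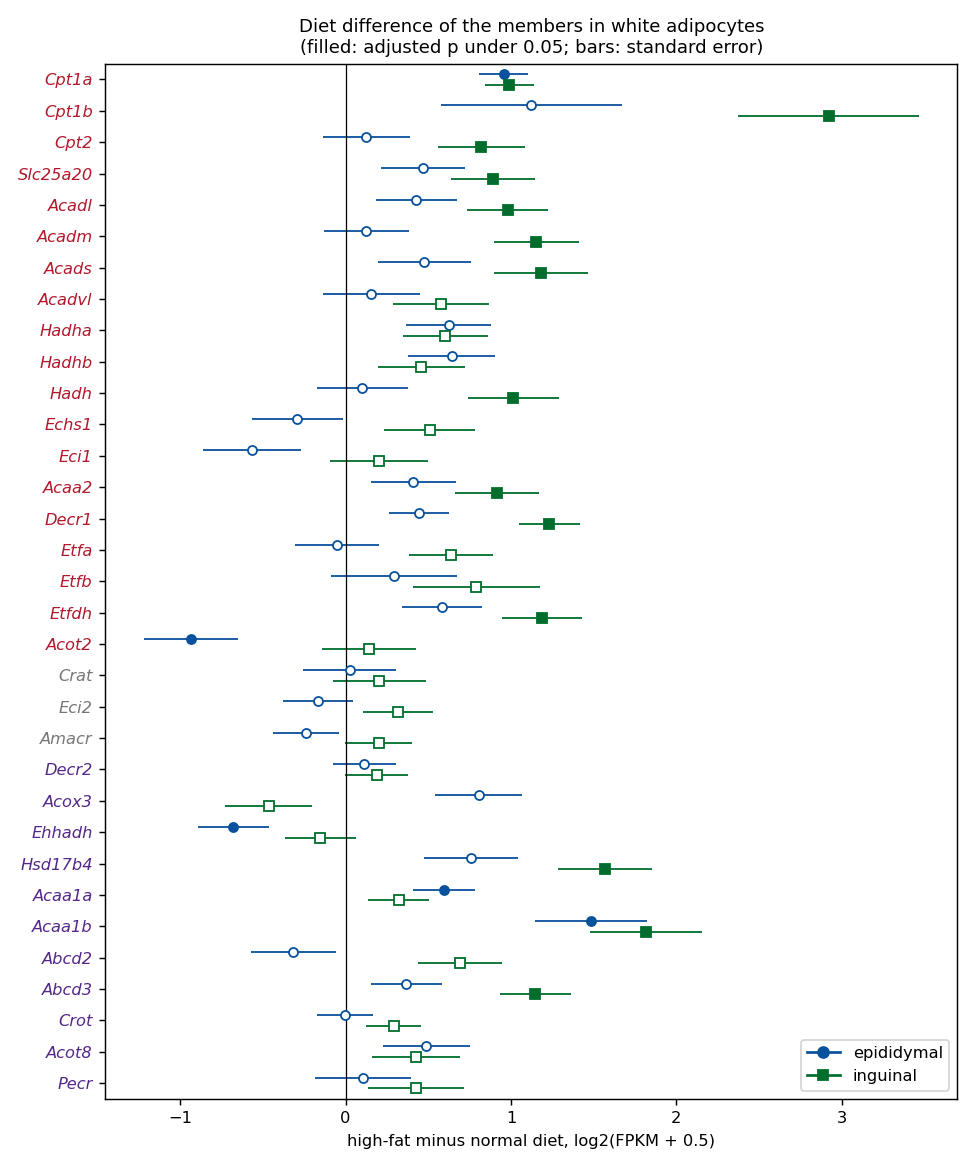
High-fat minus normal-diet difference of the 33 tested members on the log2(FPKM + 0.5) scale, in epididymal (blue circles) and inguinal (green squares) adipocytes, with bars of 1 standard error. Filled symbols mark an adjusted p under 0.05, which 14 inguinal and 5 epididymal values reached.

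Cpt1a, the carnitine acyltransferase that admits long chains to mitochondria and is inhibited by malonyl-CoA, rose in both depots (chr19:3322326-3385735). In epididymal adipocytes it was at 21.1, 24.1 and 22.4 FPKM on normal diet and at 46.2, 44 and 42.3 on high-fat diet. In inguinal adipocytes it was at 16.6, 15.6 and 17.6 and at 35.5, 37 and 28.4. The brown libraries held 8.15 FPKM on normal and 14.6 on high-fat diet, and brown values in parentheses below keep this order. No high-fat library overlapped the normal-diet libraries of its depot, and replicates lay close together. The log2 difference was 0.96 ± 0.15 (SE) in epididymal adipocytes, a 1.94-fold increase (limma adjusted p = 0.000868), and 0.99 ± 0.15 in inguinal adipocytes (limma adjusted p = 0.0014). Without the 2 lymphocyte-rich inguinal libraries the inguinal value was 1.07 (limma adjusted p = 0.0136).

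Cpt1b, the isoform of muscle and brown fat, was low in white adipocytes and rose in the inguinal depot (chr15:89416405-89425862). Inguinal libraries held 1.79, 1.12 and 0.00232 FPKM on normal diet and 6.62, 6.29 and 16.2 on high-fat diet. The high-fat libraries were all above the normal-diet ones, and replicate 2, the library with the highest white Ucp1, stood well above the other 2. The log2 difference was 2.92 ± 0.55 (limma adjusted p = 0.00417), and 2.52 without the 2 lymphocyte-rich libraries (limma adjusted p = 0.0268). Skeletal muscle markers summed to 5.00 to 14.3 FPKM in the inguinal normal-diet libraries and 11.6 to 26.3 in the high-fat ones. Ckm was listed at 0 in all white libraries except inguinal high-fat replicate 2 (0.61 FPKM). Of 7 muscle markers 4 were tested. In the inguinal depot 2 of them, Acta1 and Pvalb, were called higher on high-fat diet, and 2 lay below 0 and were not called. The part of these markers in the Cpt1b result was not tested. Epididymal libraries held 0.43, 1.09 and 1.38 FPKM on normal diet and 3.37, 1.61 and 3.03 on high-fat diet. These groups did not overlap either, but the difference of 1.12 ± 0.55 missed the threshold (limma adjusted p = 0.183).

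The carrier and the inner acyltransferase of the carnitine shuttle rose in the inguinal depot. Cpt2 was at 40.8, 74.3 and 35.5 FPKM on normal diet and at 82, 83.8 and 87.5 on high-fat diet, with normal-diet replicate 1 near the high-fat libraries and the other 2 far below. Its difference was 0.82 ± 0.26 (limma adjusted p = 0.0477), the call was lost when any of 9 of the 12 libraries was left out (adjusted p up to 0.163, without inguinal normal-diet replicate 2), and it was 0.18 without both lymphocyte-rich libraries. Slc25a20, the carnitine-acylcarnitine carrier, went from 18.6, 29.3 and 25 to 31.8, 51.2 and 55.3 FPKM. The groups did not overlap, and its difference was 0.89 ± 0.25 (limma adjusted p = 0.0286; 0.111 without high-fat replicate 2, 0.103 without high-fat replicate 1, 0.0983 and 0.0584 without normal-diet replicates 0 and 2). Crat, which makes carnitine esters of short chains in mitochondria and peroxisomes, was not called in either depot and differed by 0.03 in epididymal and 0.20 in inguinal adipocytes. Epididymal Cpt2 was at 42.2, 61.5 and 71.1 on normal diet and 58, 59.4 and 69.8 on high-fat diet (brown 91.5 and 103) FPKM, and its diets overlapped. Epididymal Slc25a20 was at 21, 33.9 and 33.6 on normal diet and 38.8, 41.2 and 40.4 on high-fat diet (brown 44 and 69.6) FPKM, without overlap. These epididymal values differed by 0.13 and 0.47 and missed the threshold.

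Of the 4 acyl-CoA dehydrogenases, which take the initial oxidative step on chains of different length, 3 rose in inguinal adipocytes. Acadm (medium chains) was at 98, 191 and 94.4 FPKM on normal diet and at 239, 265 and 308 on high-fat diet, a difference of 1.15 ± 0.26 (limma adjusted p = 0.0099). Acads (short chains) went from 39.3, 73.2 and 45.6 to 103, 119 and 126 FPKM, a difference of 1.18 ± 0.28 (limma adjusted p = 0.0134, and 0.0507 without normal-diet replicate 0). Acadl (long chains) went from 101, 183 and 95.8 to 238, 228 and 253 FPKM, a difference of 0.98 ± 0.24 (limma adjusted p = 0.0161, with the call lost without normal-diet replicate 0 or 2 or high-fat replicate 2, at 0.0579, 0.0595 and 0.0556). In each of the 3 the diets did not overlap, and normal-diet replicate 1 lay between the other normal-diet libraries and the high-fat ones. Without both lymphocyte-rich libraries the differences were 0.49, 0.66 and 0.38, and none passed (limma adjusted p = 0.28, 0.316 and 0.409). Acadvl, the membrane-bound enzyme for very long chains, differed by 0.58 ± 0.29 with overlapping diets (limma adjusted p = 0.186). In epididymal adipocytes Acadm was at 137, 186 and 189 on normal diet and 176, 178 and 199 on high-fat diet (brown 208 and 326) FPKM. Acads was at 40.6, 68.7 and 87.9 on normal diet and 86, 80.2 and 96.6 on high-fat diet (brown 69 and 105) FPKM there. Acadl was at 93.1, 136 and 132 on normal diet and 146, 165 and 169 on high-fat diet (brown 215 and 396) FPKM, the only one of these 3 whose epididymal diets did not overlap. None of the 4 was called in epididymal adipocytes, where the differences ran from 0.13 to 0.48 (lowest limma adjusted p = 0.257).

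Among the enzymes that hydrate, oxidize and cleave the chain, Hadh and Acaa2 rose in inguinal adipocytes. Hadh, the hydroxyacyl-CoA dehydrogenase for short chains, was at 101, 182 and 93.9 FPKM on normal diet and at 202, 247 and 288 on high-fat diet, a difference of 1.01 ± 0.28 (limma adjusted p = 0.0239). Acaa2, a mitochondrial thiolase, went from 44.2, 80.0 and 57.4 to 87.3, 118 and 134 FPKM, a difference of 0.92 ± 0.25 (limma adjusted p = 0.0262). In both genes normal-diet replicate 1 came closest to the high-fat libraries without reaching them. Each lost the call when either lymphocyte-rich library or high-fat replicate 1 or 2 was left out, at adjusted p of 0.0702 to 0.0898 for Hadh and 0.0664 to 0.1 for Acaa2. Without both lymphocyte-rich libraries the differences were 0.42 and 0.47 (limma adjusted p = 0.495 and 0.428). Epididymal Hadh was at 116, 168 and 206 on normal diet and 165, 161 and 188 on high-fat diet (brown 202 and 319) FPKM, with overlapping diets. Acaa2 was at 53.2, 78.3 and 88.5 on normal diet and 93.1, 88.6 and 106 on high-fat diet (brown 97.8 and 346) FPKM in the epididymal depot, without overlap. Echs1, the short-chain enoyl-CoA hydratase, differed by 0.51 in inguinal and -0.29 in epididymal adipocytes and was called in neither.

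Hadha and Hadhb did not keep a fixed proportion. In epididymal adipocytes Hadhb was at 84, 94.4 and 99.6 FPKM on normal diet and at 147, 141 and 146 on high-fat diet, and Hadha at 48.8, 77.7 and 82.7 and at 96.1, 116 and 104. Neither gene's diets overlapped there, yet the differences of 0.64 ± 0.26 and 0.62 ± 0.26 missed the threshold (limma adjusted p = 0.114 and 0.117). In inguinal adipocytes Hadhb was at 82.6, 66.9 and 36.2 and at 102, 69.5 and 73.3 FPKM, with overlapping diets and a difference of 0.46 (limma adjusted p = 0.244). The ratio of Hadhb to Hadha was at least 1.2 in all 6 epididymal libraries. In order of replicate it was 1.72, 1.216 and 1.205 there on normal diet and 1.53, 1.215 and 1.41 on high-fat diet. In inguinal adipocytes it was 1.47 and 1.3 in replicate 0 of each diet but 0.653 to 0.732 in the other 4 libraries. The split in the inguinal depot thus ran between libraries and not between diets. Replicate 0 also had the highest ratio in both epididymal groups, and what the replicate numbers stand for is not known. This pair was singled out after its values were seen. The genes share their start region, as the window above shows, and read placement within it was not examined.

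**Figure D3:**
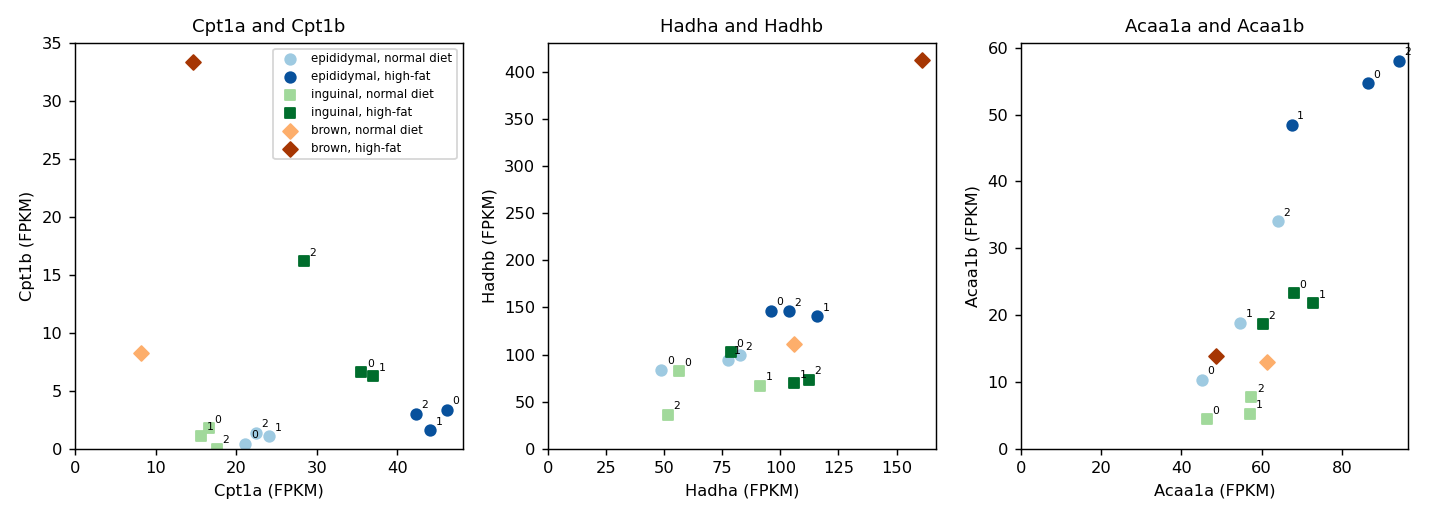
Levels in FPKM of 3 pairs of members plotted against each other, with 1 point per library and the replicate number beside white libraries: Cpt1b against Cpt1a, Hadhb against Hadha and Acaa1b against Acaa1a. The brown libraries have the lowest Cpt1a, with Cpt1b above it, inguinal replicates 1 and 2 fall below the other points for Hadhb, and the epididymal high-fat libraries have the most Acaa1b.

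Auxiliary enzymes prepare unsaturated or branched chains, and Decr1 was the only one called. Decr1, the mitochondrial dienoyl-CoA reductase (chr4:15917240-15945377), was at 41.2, 55.3 and 34.7 FPKM in inguinal adipocytes on normal diet and at 93.3, 102 and 109.7 on high-fat diet. All 3 high-fat libraries were far above the normal-diet ones. The difference was 1.23 ± 0.18, a 2.35-fold increase (limma adjusted p = 0.00135), and 0.87 without the 2 lymphocyte-rich libraries (limma adjusted p = 0.0317). The epididymal libraries held 53.1, 56.1 and 65.5 on normal diet and 84.5, 71.7 and 81.9 on high-fat diet (brown 91.2 and 121) FPKM. Here too the diets did not overlap, but the difference was 0.44 ± 0.18 and missed the threshold (limma adjusted p = 0.117). Decr2, its peroxisomal counterpart, stayed between 7.89 and 14.5 FPKM over all 14 libraries. Eci1, the mitochondrial enoyl-CoA isomerase, differed by -0.57 ± 0.30 in epididymal adipocytes (limma adjusted p = 0.219), and it was called lower there once values were rescaled to nuclear transcripts or quantile normalized. Eci2, Amacr (which inverts branched acyl-CoAs) and Pecr (a peroxisomal enoyl-CoA reductase) were called in neither depot, with differences from -0.24 to 0.42.

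Electrons from the dehydrogenases pass through the flavoprotein Etfa and Etfb to its membrane oxidoreductase Etfdh, and of these only Etfdh was called. Etfdh was at 24.5, 45.6 and 22.8 FPKM in inguinal adipocytes on normal diet and at 58.8, 71.3 and 74.4 on high-fat diet. The groups did not overlap, with a difference of 1.19 ± 0.24 (limma adjusted p = 0.00628) and of 0.57 without the 2 lymphocyte-rich libraries (limma adjusted p = 0.187). In epididymal adipocytes Etfdh was at 28.2, 38 and 36.7 on normal diet and 47.4, 54.1 and 52.1 on high-fat diet (brown 50.9 and 99.1) FPKM, again without overlap, and was not called (limma adjusted p = 0.119). Etfb was at 113, 258 and 159 FPKM on normal diet and at 191, 355 and 354 on high-fat diet in inguinal adipocytes, and at 108, 228 and 269 and at 198, 239 and 259 in epididymal ones (brown 267 and 292). Its diets overlapped in both depots, and replicate 0 was the lowest library in each white group. Acot2, a mitochondrial thioesterase that frees fatty acids from CoA, fell in epididymal adipocytes, from 7.92, 8.14 and 13.9 to 5.4, 4.24 and 4.89 FPKM. The difference was -0.93 ± 0.28 (limma adjusted p = 0.0369) and the call was lost without any of 5 libraries, at 0.136 without normal-diet replicate 2, 0.125, 0.0906 and 0.0744 without high-fat replicates 1, 2 and 0, and 0.0523 without inguinal high-fat replicate 0. Inguinal Acot2 was at 6.87, 6.88 and 4.85 and at 6.89, 4.73 and 9.65 FPKM (brown 6.86 and 10.4), with overlapping diets. Acot2 has close relatives in its gene family that could share reads, so its value is uncertain.

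Peroxisomal members called by diet were an importer, the bifunctional enzymes and the thiolases. Of the 2 importers, Abcd3, which carries dicarboxylic and branched acids, was at 18.6, 25.8 and 13.2 FPKM in inguinal adipocytes on normal diet and at 38, 42 and 45.3 on high-fat diet. The diets did not overlap and the difference was 1.15 ± 0.21 (limma adjusted p = 0.0041), or 0.68 without the 2 lymphocyte-rich libraries (limma adjusted p = 0.0781). Epididymal Abcd3 was at 26.2, 23.8 and 28.9 on normal diet and 33.9, 31.2 and 37 on high-fat diet (brown 43.3 and 43.5) FPKM, without overlap, and was not called (limma adjusted p = 0.272). Abcd2, a carrier of very long chains that is abundant in adipose tissue, differed by 0.69 ± 0.26 in inguinal (limma adjusted p = 0.0784) and -0.31 in epididymal adipocytes and was called in neither.

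The oxidase and bifunctional steps went different ways. Acox3, an oxidase of branched chains, was at 10.5, 12.9 and 13 FPKM in epididymal adipocytes on normal diet and at 22.6, 18.5 and 23.8 on high-fat diet, without overlap, and just missed the threshold at 0.81 ± 0.26 (limma adjusted p = 0.0509). In inguinal adipocytes its difference was -0.46, set by 1 high normal-diet library, replicate 2, at 29.9 FPKM. Ehhadh, the L-specific bifunctional enzyme, fell in epididymal adipocytes from 26.6, 25.9 and 33.9 to 16.5, 15.7 and 21.2 FPKM. Its difference was -0.68 ± 0.21 (limma adjusted p = 0.0427), and leaving out 8 of the 12 libraries, each in turn, lost the call (adjusted p up to 0.149, without epididymal high-fat replicate 1). Inguinal Ehhadh was at 22.7, 28.7 and 18 and at 18.7, 18.3 and 24.7 FPKM, with overlapping diets. Hsd17b4, which carries out the same reactions on D-specific substrates, rose in inguinal adipocytes from 43.7, 91.4 and 42.6 to 144, 185 and 168 FPKM. Its difference of 1.57 ± 0.28 was the largest of the peroxisomal members after Acaa1b there (limma adjusted p = 0.00367), and was 0.85 without the 2 lymphocyte-rich libraries (limma adjusted p = 0.105). Epididymal Hsd17b4 was at 74.6, 117 and 118 on normal diet and 162, 163 and 190.0 on high-fat diet (brown 96.8 and 103) FPKM, again without overlap, and the difference of 0.76 ± 0.28 missed the threshold (limma adjusted p = 0.0831).

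The thiolase Acaa1b, which cleaves the chain in peroxisomes, rose in both depots (chr9:119148043-119157093). In epididymal adipocytes it was at 10.3, 18.8 and 34.1 FPKM on normal diet and at 54.7, 48.5 and 58.1 on high-fat diet. In inguinal adipocytes it was at 4.41, 5.27 and 7.7 and at 23.3, 21.8 and 18.6. The diets did not overlap in either depot, and the epididymal normal-diet libraries were the most spread. The difference was 1.48 ± 0.34 in epididymal (limma adjusted p = 0.00929) and 1.82 ± 0.34 in inguinal adipocytes (limma adjusted p = 0.00422, and 0.0382 at 1.91 without the 2 lymphocyte-rich libraries). Its paralog Acaa1a (chr9:119341028-119350296) rose in epididymal adipocytes, from 45.2, 54.7 and 64 to 86.6, 67.5 and 94.1 FPKM, by 0.59 ± 0.19 (limma adjusted p = 0.0418). That call was lost without any of 7 libraries, with adjusted p up to 0.158 (without epididymal high-fat replicate 2), and after rescaling to nuclear transcripts or quantile normalization. Inguinal Acaa1a was at 46.3, 57.1 and 57.4 and at 68, 72.9 and 60.2 FPKM (brown 61.3 and 48.6) and was not called (difference 0.32). The ratio of Acaa1b to Acaa1a was 0.37 ± 0.15 (SD, n = 3) in epididymal normal-diet, 0.66 ± 0.06 in epididymal high-fat, 0.11 ± 0.02 in inguinal normal-diet and 0.32 ± 0.02 in inguinal high-fat libraries. The paralogs are near-identical, so reads could be split between them and both values are uncertain.

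The enzymes that release or export the shortened chains were not called. Crot, which makes carnitine esters of medium chains for export from the peroxisome, stayed between 13.4 and 20.8 FPKM over the 14 libraries. Acot8, a peroxisomal thioesterase, differed by 0.49 in epididymal and 0.43 in inguinal adipocytes, with an inguinal high-fat replicate 2 of 16.2 FPKM above its other libraries.

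Although the calls differed between the depots, no member passed the test of the difference itself. Of 33 members 0 were called in the interaction (epididymal minus inguinal diet effect, limma), where 7.22% of all genes were called, 4.8% higher and 2.42% lower. At an unadjusted p under 0.05 (limma) there were 8 of 33, 1 higher and 7 lower, and 3295 of all 14959 genes. The members' share was thus close to the background. The effect was below 0 for 28 of 33 members, with a median of -0.51 for the members and 0.07 for all genes. The 8 adipocyte markers moved with them, all 8 below 0 with a median of -0.67, and their part was not tested. The lowest adjusted p belonged to Acox3 (1.27 ± 0.37, limma adjusted p = 0.0618), followed by Decr1 (-0.79 ± 0.26, limma adjusted p = 0.0923) and Acadm (-1.03 ± 0.36, limma adjusted p = 0.113). Without inguinal normal-diet replicate 1, 12 members were called (1 higher, 11 lower), where 17.3% of all genes were called, 10.5% higher and 6.78% lower. Without replicates 0 and 2 the members' median was -0.14, and the adipocyte markers' median was 0.11. Scaling by TMM factors gave 2 called members, and rescaling to nuclear transcripts or quantile normalization gave 4 each, all lower. Of all genes 3.46%, 4.05% and 4.03% were called lower under these 3 settings.

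Between the white depots Acaa1b was the only member called, higher in epididymal than in inguinal adipocytes on both diets. The epididymal minus inguinal difference was 1.65 ± 0.34 on normal diet (limma adjusted p = 0.0174) and 1.32 ± 0.34 on high-fat diet (limma adjusted p = 0.0276), a 3.15-fold and 2.5-fold level. Its 3 epididymal libraries were above all 3 inguinal ones on each diet. The normal-diet call was lost without epididymal normal-diet replicate 1 or 2 (0.051 and 0.0548) and without inguinal normal-diet replicates 0 and 2 (0.0761), and the high-fat call without any 1 of the 6 high-fat libraries (0.062 to 0.104). Of all genes 6.51% were called on normal diet (2.36% higher, 4.15% lower) and 10.6% on high-fat diet (7.08% higher, 3.53% lower). The other members leaned oppositely on the 2 diets: on normal diet 29 of 33 members were higher in epididymal adipocytes (median 0.30), and on high-fat diet 24 of 33 were lower (median -0.29), against medians of 0.00 and 0.04 for all genes. On normal diet all 8 adipocyte markers were also higher in epididymal adipocytes, with a median of 0.56 and 0 called, and their part was not tested. Without inguinal normal-diet replicates 0 and 2 the normal-diet medians were -0.12 for the members and -0.13 for these markers.

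On high-fat diet 13 members had all 3 epididymal libraries below all 3 inguinal ones, 10 of them mitochondrial, and 4 had them above, where groups did not overlap for 38.4% of all genes, 23.2% with the epididymal libraries above. On normal diet 4 members had all epididymal libraries above (8.82% of all genes) and 1 below. Cpt1b was the farthest apart, lower in epididymal adipocytes by a log2 difference of -1.60 ± 0.55 (limma adjusted p = 0.0897). Amacr differed by -0.57 ± 0.20, Acadl by -0.58 ± 0.24 and Acadm by -0.55 ± 0.26, each missing the threshold (limma adjusted p = 0.106, 0.176 and 0.234). Hadhb and Acox3 lay in the other direction, at 0.84 ± 0.26 and 0.73 ± 0.26 (limma adjusted p = 0.065 and 0.112). The split depended on scaling: after rescaling to nuclear transcripts, which moved the median of all genes from 0.04 to -0.16, 10 members were called lower, and after quantile normalization 5. Of all genes 6.07% and 4.2% were called lower under these 2 settings. Macrophage markers moved with the depot on this diet, with 6 of 8 called higher and 0 lower in epididymal adipocytes, and so did endothelial markers, with 7 of 7 lower. Brown adipocyte markers ran the same way as most members, all 8 tested lower in epididymal adipocytes with a median of -1.37. Of these 5 did not overlap and 2 were called lower, Cidea (-2.69) and Lhx8 (-2.77), and the 9 markers summed to 55.2 to 63.5 FPKM in epididymal and 106 to 302 in inguinal high-fat libraries. Their part in the members' values was not tested.

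The balance between the compartments was described by the mean of log2(FPKM + 0.5) over the 19 mitochondrial members minus that over the 12 peroxisomal ones. It was 1.64 ± 0.12 (SD, n = 3) in epididymal normal-diet, 1.65 ± 0.05 in epididymal high-fat and 1.70 ± 0.30 in inguinal normal-diet libraries. Inguinal high-fat libraries had 2.12 ± 0.14, with values of 1.97, 2.14 and 2.24. The inguinal normal-diet libraries had 1.72, 1.99 and 1.40, so that their replicate 1 overlapped the high-fat group. Epididymal groups overlapped and differed by less than their spread. No p was computed for this index, since it averages chosen genes.

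The summed levels of both compartments were higher on high-fat diet in inguinal adipocytes. Mitochondrial members summed to 1418 ± 501 FPKM (SD, n = 3) in inguinal normal-diet and 2439 ± 339 in inguinal high-fat libraries, and peroxisomal members to 304 ± 66.6 and 508 ± 24.3. In epididymal libraries the sums were 1714 ± 408 and 1939 ± 138 for mitochondrial members, and 421 ± 67.7 and 536 ± 55.3 for peroxisomal ones. The ratio of the sums was 4.04 ± 0.50 and 3.63 ± 0.23 in epididymal and 4.58 ± 0.57 and 4.79 ± 0.46 in inguinal adipocytes on normal and high-fat diet. These sums follow the most abundant genes, such as Etfb and Etfa or Hsd17b4 and Abcd2, while the mean of log values counts each member alike. That mean therefore gives full weight to members near the floor. Cpt1b, with the largest inguinal diet difference of the mitochondrial members (2.92), and Acox2, at 0 in 7 of the 14 libraries, are both in it. Their part in the inguinal shift was not tested.

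**Figure D4:**
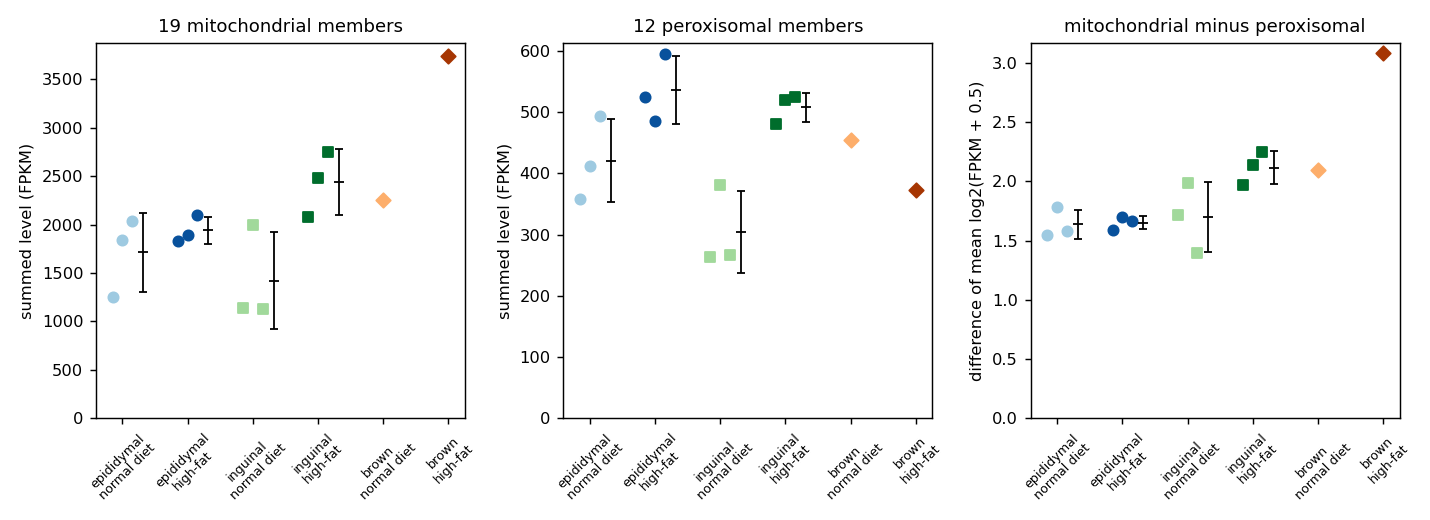
Summed FPKM of the 19 mitochondrial members, of the 12 peroxisomal members, and the difference of their mean log2(FPKM + 0.5), with 1 point per library and group mean ± SD for the 4 white groups. The brown high-fat library is highest for the mitochondrial sum (3736 FPKM) and the difference (3.09), while its peroxisomal sum (373 FPKM) lies among the white libraries.

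In the brown libraries most mitochondrial members were above the white range, while the place of the peroxisomal ones depended on scaling. On normal diet 13 of 19 mitochondrial and 2 of 11 peroxisomal members lay above all 6 white libraries of that diet, where 8.9% of all genes did and 35.1% lay below. On high-fat diet 16 of 19 mitochondrial members lay above them, while 6 of 11 peroxisomal members lay below and 0 above, where 8.48% of all genes lay above and 41.8% below. The peroxisomal share below was thus near that of all genes. Under TMM factors 8 of 11 peroxisomal members lay above on normal diet (17 of 19 mitochondrial, 19.4% of all genes), and on high-fat diet 3 lay above and 5 below (20.9% and 22.6% of all genes). The mitochondrial minus peroxisomal difference was 2.09 on normal diet and 3.09 on high-fat diet, and the ratio of summed levels 4.96 and 10.0. With 1 brown library per diet there is no test, and these values compare libraries and not conditions.

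At least 2-fold from the white mean and outside the white range, on normal diet, were only Cpt1b (higher) and Cpt1a (lower), where 3.05% of all genes were as far above and 17.4% as far below. Cpt1b was at 8.3 FPKM in the brown library, against 0.00232 to 1.79 in the white ones, a log2 difference of 2.74. Cpt1a was at 8.15 FPKM against 15.6 to 24.1, a log2 difference of -1.20. The 2 isoforms were about level in that library, with a Cpt1b to Cpt1a ratio of 1.02, while in white libraries the ratio did not pass 0.57. Skeletal muscle also uses Cpt1b, and its 5 markers were higher in the brown libraries too, 4 at least 2-fold with a median log2 difference of 2.17 on normal diet, and all 5 with a median of 3.63 on high-fat diet. Their part in the brown Cpt1b values was not tested. Abcd3 and Ehhadh followed in size on normal diet, at 43.3 and 47 FPKM and log2 differences of 0.96 and 0.87.

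On high-fat diet 5 members were at least 2-fold higher in the brown library, all mitochondrial, and 2 lower, where 2.86% of all genes were as far above and 10.5% as far below. Cpt1b was at 33.4 FPKM against 1.61 to 16.2 in the 6 white libraries. Hadhb was at 412 FPKM against 69.5 to 147, and Acaa2 at 346 against 87.3 to 134. The last 2 thus stood 3.81-fold and 3.34-fold above the white mean, more than Acadvl (2.4-fold) and Acadl (2.02-fold). Cpt1a (14.6 FPKM against 28.4 to 46.2) and Acaa1b (13.9 against 18.6 to 58.1) were the 2 lower. The count depended on scaling, with 12 members at least 2-fold higher and 0 lower under TMM factors, 11 and 1 after rescaling to nuclear transcripts and 8 and 0 after quantile normalization. Scaling moved all genes too, with their median going from -0.35 to -0.06, -0.095 and -0.01 in turn. On normal diet TMM factors gave 10 higher and 0 lower, and the median of all genes went from -0.38 to -0.14. The share of all genes past 2-fold is not given for these scalings.

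**Figure D5:**
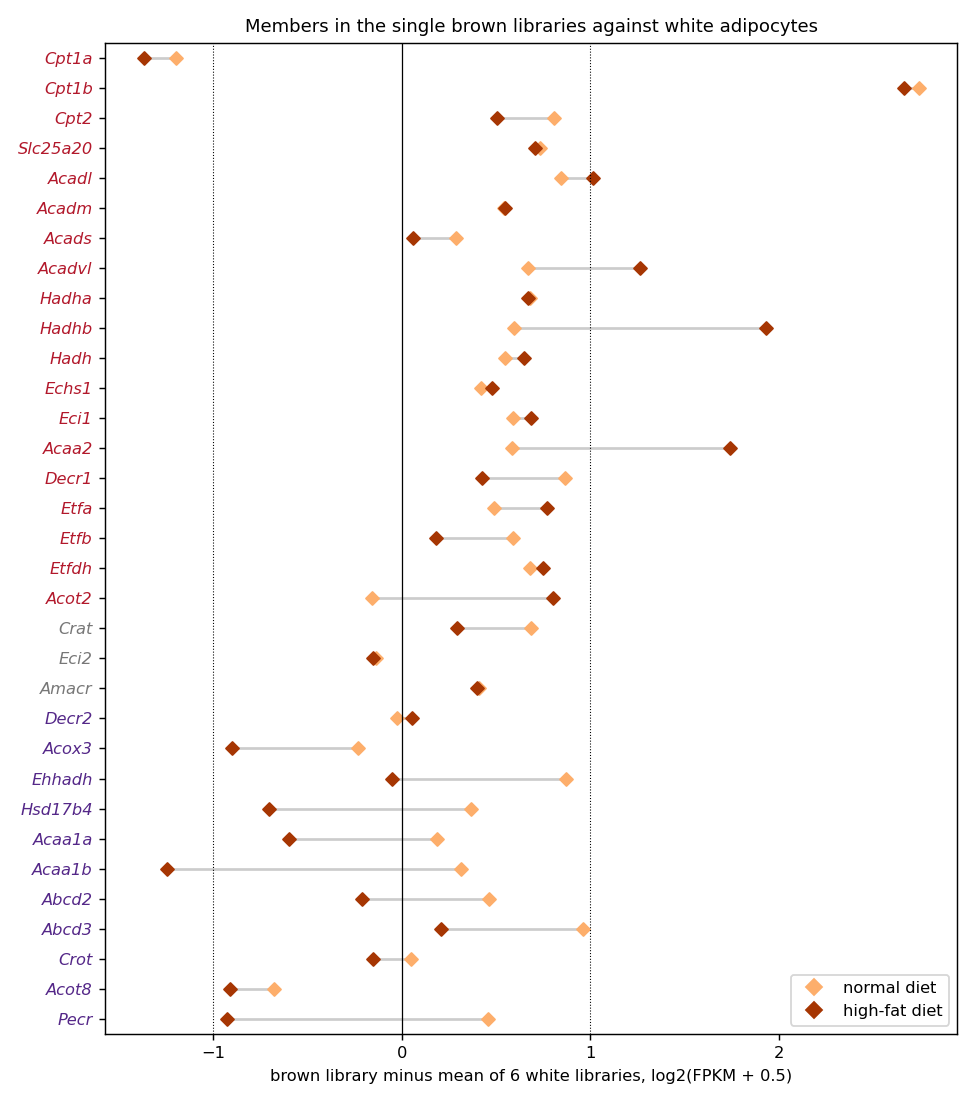
Brown library minus the mean of the 6 white libraries of the same diet for 33 members, on the log2(FPKM + 0.5) scale, for the normal (pale) and high-fat (dark) diet, with dotted lines at a 2-fold difference. Cpt1b lies far to the right and Cpt1a to the left on both diets, while most peroxisomal members move left on the high-fat diet.

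Between the 2 brown libraries Cpt1b, Hadhb and Acaa2 were at least 2-fold higher on high-fat diet and Ehhadh and Pecr at least 2-fold lower, where 10.9% of all genes were as far higher and 6.41% as far lower. After rescaling to nuclear transcripts 6 members were at least 2-fold higher and 1 lower, and the median of all genes went from 0.04 to 0.16. Hadhb went from 111 to 412 FPKM while its partner Hadha went from 106 to 161, so that their ratio was 1.05 and 2.56. Ehhadh went from 47 to 18.3 FPKM and Pecr from 12.5 to 5.46. The brown high-fat library also had more of other cells' markers: endothelial markers summed to 378 FPKM against 109, skeletal muscle markers to 140.2 against 51.8 and macrophage markers to 139.9 against 25.5, and adipocyte markers to 14168 against 24051. Ucp1 was 503 against 121 FPKM. The part of these in the members' values was not tested.

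Genes around the oxidation steps were called in both directions. Of 13 listed genes of acyl-CoA activation, which couple fatty acids to CoA, 11 were tested, and 2 rose and 3 fell in inguinal and 2 rose and 2 fell in epididymal adipocytes (list median 0.14 and 0.44). Acsl1, the main long-chain synthetase of fat, rose in inguinal adipocytes by 1.41 ± 0.39 (limma adjusted p = 0.0267), but it was at 281, 745 and 211 FPKM on normal diet and at 771, 1066 and 1004 on high-fat diet, and without the 2 lymphocyte-rich libraries the difference was 0.33 (limma adjusted p = 0.614). Slc27a4, a fatty acid transport protein, rose in both depots, by 1.04 ± 0.20 in epididymal and 0.71 ± 0.20 in inguinal adipocytes (limma adjusted p = 0.00396 and 0.0312; 0.314 in inguinal adipocytes without those libraries). Acsm3, a medium-chain synthetase, fell in both, from 12.1, 25 and 53.7 to 0.379, 1.4 and 1.84 FPKM in epididymal adipocytes (limma adjusted p = 0.00166) and from 6.22, 14 and 48.2 to 0.449, 1.62 and 1.3 in inguinal ones (limma adjusted p = 0.00608).

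Of 13 regulators of oxidation, Acacb fell in both depots and Esrra rose in 1. Acacb makes the malonyl-CoA that inhibits Cpt1, and was at 24.7, 39.2 and 37.5 FPKM on normal diet and at 6.69, 10.2 and 11.4 on high-fat diet in epididymal adipocytes. The diets did not overlap there, with a difference of -1.79 ± 0.38 (limma adjusted p = 0.00584). In inguinal adipocytes it was at 26.7, 42.2 and 16.5 and at 6.29, 11.6 and 15.8 FPKM, a difference of -1.29 ± 0.38 (limma adjusted p = 0.0326). Esrra, an estrogen-related receptor of oxidative genes, rose in epididymal adipocytes by 0.92 ± 0.23 (limma adjusted p = 0.0159). Ppara was at 1.47 to 7.85 FPKM in the white libraries and was not called in either depot.

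Of 11 tested genes of other mitochondrial oxidation, Acad9 and Acot9 rose in inguinal adipocytes, by 1.14 ± 0.36 and 0.77 ± 0.24 (limma adjusted p = 0.0445 and 0.0418). Without the 2 lymphocyte-rich libraries these were 0.66 and 0.73 and neither passed (limma adjusted p = 0.502 and 0.0647). Of 4 tested genes of ketone body metabolism, Oxct1 and Acat1, which return ketone bodies to acetyl-CoA, rose in inguinal adipocytes by 1.17 ± 0.30 and 0.88 ± 0.24 (limma adjusted p = 0.0188 and 0.0243), and without those libraries the differences were 0.40 and 0.26 (limma adjusted p = 0.485 and 0.569). Of 14 genes kept as a reference for mitochondrial mass, 1 rose in inguinal adipocytes, Cs (citrate synthase), by 0.68 ± 0.17 (limma adjusted p = 0.0174; 0.238 without those libraries), and their medians were 0.24 in inguinal and 0.40 in epididymal adipocytes. In inguinal adipocytes the mitochondrial members' median of 0.89 was thus above that of the reference genes, and in epididymal adipocytes (0.41) it was level with it. Without the 2 lymphocyte-rich libraries the inguinal medians were 0.38 for the mitochondrial members and 0.17 for the reference genes. These differences between lists were not tested.

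Of 16 peroxisome assembly genes, 2 rose in inguinal and 1 in epididymal adipocytes and 0 fell, where 9.3% and 12.2% of all genes were called higher, so that the shares were near the background. Pex16 and Pex7 rose in inguinal and Pex16 in epididymal adipocytes, with Pex16, a membrane biogenesis factor, differing by 1.02 ± 0.26 and 1.05 ± 0.26 (limma adjusted p = 0.0165 and 0.0123). Without the 2 lymphocyte-rich libraries neither inguinal call held (limma adjusted p = 0.306 for Pex16 and 0.285 for Pex7). Of 19 tested other peroxisomal proteins, 3 rose and 2 fell in epididymal and 4 rose and 1 fell in inguinal adipocytes. Pxmp2 and Phyh were the 2 that fell in epididymal adipocytes, by -0.81 ± 0.18 and -0.79 ± 0.25 (limma adjusted p = 0.00878 and 0.0438). Far1 fell in inguinal adipocytes, from 22, 12.2 and 19.1 to 10.4, 7.64 and 8.29 FPKM (-0.94 ± 0.23, limma adjusted p = 0.0147). Its highest normal-diet values, 22 and 19.1, were those of the lymphocyte-rich replicates 0 and 2. Replicate 1, at 12.2, lay near the high-fat libraries, so the Far1 difference leaned on those 2 libraries. Tysnd1, the protease that processes peroxisomal oxidation enzymes, rose in both depots, by 1.12 ± 0.19 in epididymal and 1.01 ± 0.19 in inguinal adipocytes (limma adjusted p = 0.00173 and 0.00499). Nudt7, a CoA-cleaving hydrolase, was called higher in both depots too. It rose in inguinal adipocytes by 1.01 ± 0.24 (limma adjusted p = 0.0145). In epididymal adipocytes Nudt7 went from 23.6, 37.8 and 37.9 to 50.5, 57.2 and 59.7 FPKM. Without the 2 lymphocyte-rich libraries the inguinal values were 0.76 for Tysnd1 and 0.59 for Nudt7 (limma adjusted p = 0.105 and 0.319). Between depots on high-fat diet, Hspd1 and Phb of the mitochondrial reference were higher in epididymal adipocytes, by 1.07 ± 0.24 and 1.11 ± 0.32 (limma adjusted p = 0.0155 and 0.0423), the opposite side from most mitochondrial members.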

How the data were processed

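The floating cells' poly(A) RNA was sequenced on an Illumina instrument (labels' protocols). The submitters' processing notes name the build mm10, TopHat2 (2.0.9) for alignment and Cuffdiff (2.1.1) for gene values. What the authors deposited is read here as FPKM, from the tools named and from the values themselves. Annotation and strand setting are not given in the sources used here. FPKM cannot be turned into counts, so depth per library is unknown and precision rests on replicate spread, which between pools of mice may be partly technical. Symbols were matched to 36638 of 38553 identifiers.

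For white adipocytes limma 3.58.1 (R 4.3.3) was run on log2(FPKM + 0.5) of 12 libraries (4 group means, 8 residual degrees of freedom, trended prior), over 14959 genes at 0.5 FPKM or more in at least 3 libraries. Two-sided Benjamini-Hochberg adjusted p under 0.05 was a call. The log scale understates changes of low genes. Brown libraries entered no test and were set against the mean of 6 white libraries, over genes at 0.5 FPKM in at least 2 of 14 libraries. The fit was checked on simulated data. Alternatives were pseudocounts of 0.1 and 1, other filters, TMM factors, rescaling without the mitochondrial genome, quantile normalization, array weights, only the groups compared, a replicate block and left-out libraries.

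Members and lists were chosen with earlier results of these data known. A listed gene is not reported here. Named were all members called in any contrast, the highest and lowest of each compartment, 2 isoform or paralog pairs, and up to 4 members farthest apart in brown on normal diet. From the other lists, called genes were named out of up to 2 each way per list and contrast with a white mean of at least 2 FPKM. Not all of these are given. Sample titles number the replicates without saying what the numbers stand for. Deviations of same-numbered libraries correlated at 0.18, 0.11 and 0.15 between depots on high-fat diet, the only contrast where each was above 0.1. By diet they correlated at 0.18, 0.082 and 0.16 in epididymal and at 0.27, 0.098 and 0.0069 in inguinal adipocytes. Between depots on normal diet the values were 0.13, 0.029 and 0.076. Every same-numbered value was above 0. Differently numbered libraries correlated at -0.17 to -0.0047 by diet in epididymal adipocytes and at -0.12 to -0.018 between depots on high-fat diet. By diet in inguinal adipocytes they ran from -0.19 to 0.11, and between depots on normal diet from -0.12 to 0.032. As the labels do not explain the numbers, whether same-numbered libraries belong together is not settled.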

Additional observations from a re-analysis of the deposited data

Results flagged for a closer look

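The diet effect differed between the depots by the test of that difference (epididymal minus inguinal, limma adjusted p under 0.05) for 4 listed genes around the pathway, none of them a member. Acss1, the mitochondrial acetyl-CoA synthetase, differed by 1.87 on the log2 scale and was at 2.25, 3.41 and 3.51 FPKM (epididymal normal diet), 4.22, 4.53 and 4 (epididymal high-fat), 7.19, 7.02 and 12.8 (inguinal normal diet) and 1.65, 2.69 and 5.18 (inguinal high-fat). Acsf2, a medium-chain synthetase, differed by 1.10, with 8.5, 10.8 and 10.5 and 12.8, 13.2 and 15.4 FPKM in epididymal and 19.7, 16.7 and 13.2 and 9.75, 11.2 and 9.89 in inguinal adipocytes. Acsl5, a long-chain synthetase, differed by 0.90, with 15.7, 21.3 and 18.9 and 28.4, 30.5 and 30.4 FPKM in epididymal and 17, 23.2 and 21 and 16, 16.2 and 19.5 in inguinal adipocytes. Phyh, which starts the breakdown of phytanic acid in peroxisomes, differed by -1.30, with 83.7, 119.8 and 134 and 53, 61.6 and 79.1 FPKM in epididymal and 65.6, 101 and 58.9 and 91.3, 103 and 121 in inguinal adipocytes. Its inguinal normal-diet level was below every high-fat library only in the lymphocyte-rich replicates 0 and 2, while replicate 1 lay among the high-fat ones. The Phyh difference thus leaned in part on those 2 libraries. The macrophage markers and the 7 endothelial markers also differed between depots in their diet effect, with 1 of 8 and 7 of 7 called, and their part in these values was not tested.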

How the results depend on the processing

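Over 483 recomputed values of the 21 called member effects, all 483 kept their sign, 401 stayed called and 82 did not, and 5 effects were called under every alternative run (Cpt1a and Acaa1b on diet in both depots, Decr1 on diet in inguinal adipocytes). The count of members called by diet in epididymal adipocytes was 3 without the filter, 8 with only the groups compared, 13 with array weights, 8 with the replicate block and 10 without inguinal normal-diet replicates 0 and 2, and 2 to 9 with single libraries left out. In inguinal adipocytes it was 4 with only the groups compared, 22 with array weights, 4 without those 2 libraries, and 8 to 19 with single libraries left out. The interaction gave 2 under TMM, 4 after rescaling without the mitochondrial genome, 4 after quantile normalization, 15 with array weights and 0 to 12 with single libraries left out. The depot count on normal diet was 2 under TMM, 2 after rescaling, 2 after quantile normalization, 0 with only the groups compared, 3 with array weights, 0 without those 2 libraries, and 0 to 7 with single libraries left out. On high-fat diet it was 2 at a pseudocount of 1, 0 without the filter, 2 under TMM, 11 after rescaling, 6 after quantile normalization, 8 with only the groups compared, 13 with array weights, 7 without those 2 libraries, and 0 to 4 with single libraries left out. The share of all genes called moved as well. For epididymal diet it was 24.1% with only the groups compared, 34.2% with array weights and 22.8% with the replicate block. For inguinal diet it was 4.77% with only the groups compared and 30.8% with array weights. Array weights gave 19% for the interaction, and 14% and 24.6% between depots on normal and high-fat diet. The cause of these shifts was not tested, except that only the groups compared and left-out libraries use fewer samples.

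The replicate block, fitted as a paired analysis, moved the epididymal diet count to 8 (6 higher, 2 lower), where 22.8% of all genes were called. The block moved the inguinal diet count to 15, all higher, where 23.1% of all genes were called. It changed no call of a member between depots on high-fat diet, where every pair of same-numbered libraries correlated above 0.1. In the other contrasts not every pair of same-numbered libraries correlated above 0.1.

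The mitochondrial minus peroxisomal difference (epididymal normal diet, epididymal high-fat, inguinal normal diet, inguinal high-fat, brown normal diet, brown high-fat) moved as follows. As a log2 ratio of summed FPKM it was 2.01, 1.86, 2.19, 2.26, 2.31 and 3.32. With Crat, Eci2 and Amacr counted as mitochondrial it was 1.502 (epididymal normal diet), 1.46 (epididymal high-fat), 1.91 (inguinal high-fat), 1.93 and 2.81 (brown), and counted as peroxisomal 1.51 (epididymal normal diet), 1.91 and 2.87 (brown). At a pseudocount of 0.1 it was 1.81 (epididymal high-fat), 2.30 (inguinal high-fat), 2.30 and 3.24 (brown), and at 1 it was 1.57 (epididymal high-fat), 1.99 and 2.98 (brown). With single libraries left out it ran from 1.57 to 1.68, 1.63 to 1.68, 1.56 to 1.85 and 2.05 to 2.19 in the 4 white groups. Brown members at least 2-fold apart numbered 10 on normal diet and 12 on high-fat diet under TMM, and 12 on high-fat diet after rescaling. These scalings also raised the median of all genes in brown against white libraries.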
